A study of Homo sapiens with 52 samples.

Results

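The genes described here encode the cytosolic ribosomal proteins, the protein subunits of the ribosome that translates nuclear mRNAs. They were chosen by symbol: every probe set on either array design that the array annotation assigned to 1 gene named as a large subunit protein (RPL), a small subunit protein (RPS) or an acidic stalk protein (RPLP), without the RPS6K kinases and without Y-linked genes. This gave 59 genes with 135 probe sets, of 17518 genes with 34503 single-gene probe sets on the arrays. They comprised 30 large subunit proteins, 20 small subunit proteins, the stalk proteins RPLP1 and RPLP2, and 7 paralogs whose symbols carry an added L. The probe sets of several other ribosomal proteins, among them RPL5, RPL10, RPLP0, RPSA and RPS27A, were not annotated to a single gene of that symbol, so these genes are not members. Of the 59 genes, 58 had a probe set detected on at least 2 of 26 arrays and were tested among 12201 genes. The remaining gene, RPL3L, a paralog known from heart and skeletal muscle, was not.

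RNA of human embryonic stem cells was hybridised to both designs of the Affymetrix HG-U133 set, called the A chip and the B chip. The groups were H1 cells taken daily from day 1 to day 10 while they differentiated with retinoic acid at 5 µM, the lines H9 and HUES8, both undifferentiated, and H1 cells at day 0. All 3 lines were kept in mTeSR medium on Matrigel, and every group had 2 replicates labelled biological, so 13 groups gave 26 samples and 52 arrays. H1, H9 and HUES8 are each a line from 1 embryo, and no untreated H1 sample of days 1 to 10 was analysed here, so the effect of retinoic acid and that of time in culture cannot be told apart.

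A ribosome is built from a small and a large subunit, each an assembly of ribosomal RNA and one copy of most of its proteins, and the stalk on the large subunit recruits the elongation factors. Making ribosomes is a main cost of a growing cell: RNA polymerase I transcribes the ribosomal RNA, and many biogenesis factors in the nucleolus cut, modify and fold it while the proteins join. Most mRNAs of ribosomal proteins begin with a cytosine followed by a stretch of pyrimidines, the 5′ terminal oligopyrimidine (TOP) start, through which the mTOR pathway and LARP1 set their translation, so their protein output can change without a change of mRNA level.

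The TOP start is shown here because most of these genes carry it. In the RefSeq promoter table (GRCh38.p14, from 250 bases before to 50 bases after each annotated start), 51 of the 59 genes had an entry by symbol. A TOP start was counted where the first transcribed base was C and an unbroken run of C and T of at least 5 bases began there, read on the strand of the gene. It was present in 35 of the 51 genes (68.6%), against 1404 of all 27305 genes in the table (5.14%). Among the tested genes with an entry, 712 of 9959 had one (7.15%). It was found in 18 of 25 large subunit genes and 14 of 19 small subunit genes, but in 1 of 5 L paralogs. Mitochondrial ribosomal protein genes had it in 5 of 68 cases and ribosome biogenesis genes in 6 of 42. The windows below belong to the 6 genes that passed the test at day 10 and to RPS27L, the paralog of one of them. Each has 10 bases before the start and 20 from it, and capitals mark the run of C and T that begins at the first transcribed base.
RPL22: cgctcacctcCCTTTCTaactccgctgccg
RPL22L1: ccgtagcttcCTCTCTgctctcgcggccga
RPS27: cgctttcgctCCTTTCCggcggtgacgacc
RPS27L: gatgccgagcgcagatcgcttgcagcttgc
RPL31: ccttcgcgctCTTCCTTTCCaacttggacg
RPL39: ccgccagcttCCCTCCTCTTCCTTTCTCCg
RPS3: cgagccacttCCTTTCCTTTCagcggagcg
In GRCh38.p14 they lie at chr1:6199576-6199605 on the minus strand (RPL22), chr3:170870176-170870205 on the minus strand (RPL22L1), chr1:153990752-153990781 on the plus strand (RPS27), chr15:63157458-63157487 on the minus strand (RPS27L), chr2:101002279-101002308 on the plus strand (RPL31), chrX:119791611-119791640 on the minus strand (RPL39) and chr11:75399508-75399537 on the plus strand (RPS3). The run is 19 bases in RPL39 and 6 in RPL22L1. The window of RPS27L begins transcription without one, unlike that of its parent RPS27. A match or its absence describes these letters only.

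The cells changed state over the course. All 7 measured markers of undifferentiated cells fell at day 10, and their summed signal was 11317 and 11812 in the day 10 samples, against 57609 and 58926 in the day 0 samples. All 6 measured epithelial and trophoblast markers rose, with sums of 49430 and 53134 at day 10, against 10318 and 10770 at day 0. Of 5 mesoderm and matrix markers 3 rose, COL3A1 by 7.31 ± 0.60 log2 units most, and 1 fell, with sums of 21708 and 12052 at day 10, against 4505 and 5377 at day 0. Of 5 endoderm markers 2 rose, GATA6 and FOXA2, and of 5 neural markers 1 rose, ZIC1, and 2 fell. GATA6, FOXA2 and ZIC1 were called present in 0 of 2 day 0 samples. At day 10 GATA6 and FOXA2 were called present in 2 of 2 samples, and ZIC1, at 194 and 198, in 1 of 2. The part of the marker changes in the results for ribosomal protein genes was not tested. Of the markers of undifferentiated cells, NANOG, SOX2, DNMT3B, LIN28A, ZFP42 and L1TD1 were called present in both day 0 samples, and PRDM14 in 1 of them. Replicates correlated at 0.931 to 0.960 over the genes of the A chip and at 0.912 to 0.941 on the B chip. In bulk RNA a change in the share of a cell type and a change of RNA per cell cannot be told apart.

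On the probe sets used, the family varied little over the course. For each gene the 11 H1 group means were compared on the log2 scale, and the distance from the lowest to the highest had a median of 0.36 over the 58 members, against 1.04 over all genes tested. In 48 of the 58 members it was under 0.5 log2 units, a range that 8.76% of all genes tested kept to. The members also varied less between replicates, with a median pooled SD of 0.18 against 0.33 log2 units over all genes. They were among the brightest probe sets: 23 of the 35 read from the A chip and 19 of the 23 read from the B chip ranked in the top 1% of signals on every array of their chip. For 21 of the 35 and 14 of the 23, the signal relative to the highest on the same array had a median over the arrays above 50%. Dimmer probe sets of some of the same genes moved more, among them those of RPS23 and RPL37 described with the other probe sets. How far brightness bears on the narrow range was not tested.

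The member with the narrowest range of group means was RPS29, a zinc-binding small subunit protein named here after its values were seen, whose 22 H1 signals had a lowest value of 45081, a median of 49463 and a highest value of 60823. RPL11, which with RPL5 and 5S ribosomal RNA can bind the p53 regulator MDM2, had a lowest signal of 70161, a median of 81435 and a highest of 111196, and its day 10 change was -0.0083 ± 0.24 log2 units (SE, limma adjusted p = 0.985). RPLP1, a stalk protein, had 37454 and 41033 at day 10, against 33015 and 31390 at day 0. Its change of 0.28 ± 0.15 did not pass the test (limma adjusted p = 0.167), although both day 10 samples lay above both day 0 samples. The other stalk gene, RPLP2, gave no usable course, since its single-gene probe set was called present on 12 of 26 arrays.

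**Figure D1:**
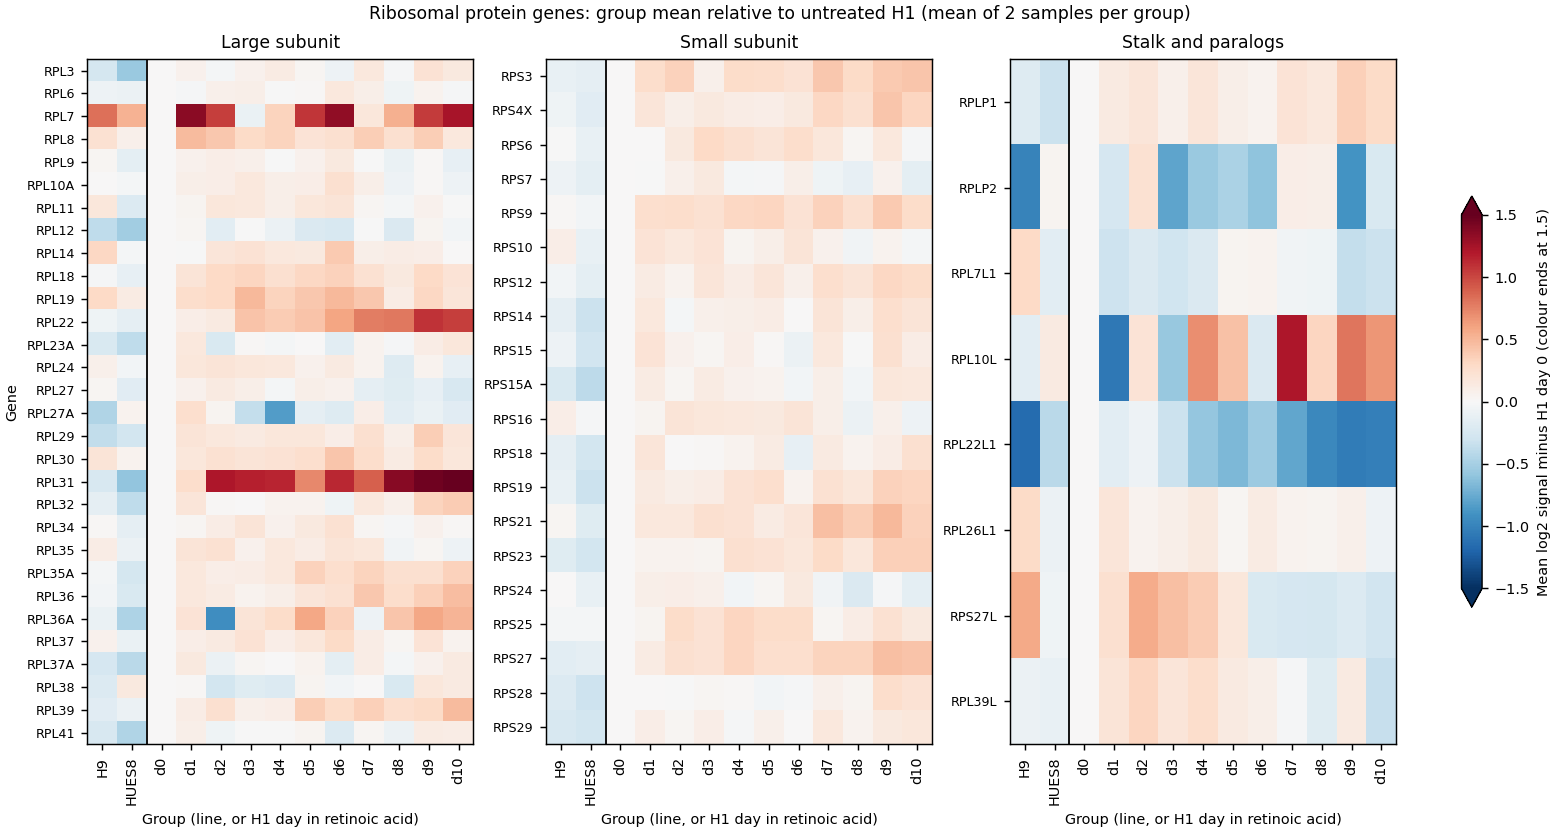
Group means of the 58 tested ribosomal protein genes as log2 signal minus the H1 day 0 mean (colour, ending at 1.5 in either direction), for H9, HUES8 and H1 days 0 to 10 (columns, 2 samples each) and genes by role (rows). Most rows stay pale, RPL22 and RPL31 are red late in the course, RPL22L1 is blue late in the course and in H9, and the patchy rows RPL7, RPL10L, RPL36A and RPLP2 are probe sets called present on 2 to 12 of 26 arrays.

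Over the whole H1 course, 12 of the 58 members had a linear trend past the threshold (limma adjusted p under 0.05), which is 20.7% of them, against 44.8% of all genes tested. Of these, 10 rose (23.3% of all genes tested did) and 2 fell (21.4%). The 10 comprised 4 of 30 large subunit genes and 6 of 20 small subunit genes. All 10 were read from the A chip, and large subunit genes were read from the B chip more often than small subunit genes. The split by subunit therefore cannot be told apart from the choice of chip. Both that fell, RPL22L1 and RPS27L, were L paralogs. By the F test for any difference among the 11 H1 days, 2 of 58 were called (3.45%, against 27% of all genes tested), RPL22 and RPL31. The trend count depended on the latest samples: it was 7 without day 9 replicate 2 and 6 without day 10 replicate 2.

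Against day 0, no member was called on day 1 (1.19% of all genes tested were). There 2 members had an unadjusted limma p under 0.05 (3.45%, against 10.6% of all genes tested). On day 4, 1 member was called, RPL31, which rose (7.79% of all genes tested were called and 4.93% rose). On day 7, 1 member was called, RPL22, which rose (15.4% were called and 9.01% rose). On day 10, 6 were called (10.3% of members, against 25.5% of all genes tested). These were RPL22, RPL31, RPL39, RPS27 and RPS3, which rose (13% of all genes tested did), and RPL22L1, which fell (12.5%). The median day 10 change was 0.15 log2 units over the members and 0.0030 over all genes tested, and 38 of 58 members were higher at day 10. With day 0 replicate 1 or day 10 replicate 2 left out, 2 members were called, and without day 10 replicate 2 the median change was 0.025.

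RPL22 rose most steadily. It is an RNA-binding protein of the large subunit, needed in mice for T cell development, and ribosomes can be made without it. Its signals were 6204 and 5584 on day 0, 8236 and 7087 on day 4, 10246 and 9757 on day 7, and 10139 and 14424 on day 10. The 8 samples of days 7 to 10 all lay above the 12 samples of days 0 to 5. The day 10 mean was 2.05-fold that of day 0, a change of 1.04 ± 0.18 log2 units (SE, n = 2 and 2, limma adjusted p = 2.28e-04), and the trend was 0.11 ± 0.012 log2 units per day (limma adjusted p = 3.48e-07). Both calls held with any 1 sample left out. The day 7 change of 0.76 ± 0.18 (limma adjusted p = 0.00525) had an adjusted p of 0.0609 without day 0 replicate 2.

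The 5 probe sets of RPL22 did not respond alike. Besides the one used (221726_at), 214042_s_at changed by 0.73 ± 0.21 log2 units at day 10, with a limma adjusted p of 0.0157 when every probe set was fitted. The other 3, whose names end in _x_at and mark possible cross-hybridisation, changed by 0.40, 0.22 and 0.22, and none of them was called at day 10. With the brightest of these in its place, RPL22 was not called in any of the 4 tests that had called it, with a day 10 change of 0.22.

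RPL22L1, the paralog of RPL22, moved the other way. In mice Rpl22 protein represses Rpl22l1, and either protein can take the same place in the ribosome. The signals of RPL22L1 were 17468 and 20481 on day 0, 10086 and 15901 on day 4, 10215 and 11847 on day 7, and 10110 and 8506 on day 10. All 8 samples of days 7 to 10 lay below both day 0 samples, with a highest value of 11847. The day 10 change was -1.03 ± 0.32 log2 units, a ratio of 0.49 (limma adjusted p = 0.0230). This call did not survive the loss of any of the 4 samples (adjusted p = 0.0513 to 0.147), whereas the trend of -0.11 ± 0.022 log2 units per day (adjusted p = 2.64e-04) was called with each of the 22 H1 samples left out in turn. RPL22L1 was read by 1 probe set, on the B chip, and its replicate 2 lay above its replicate 1 on 9 of the 11 H1 days, reaching 23768 against 12070 on day 1.

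The remaining pairs of parent and paralog gave a mixed picture. RPS27, a zinc finger protein of the small subunit, rose modestly, with 40809 and 44197 at day 10, against 30427 and 32982 at day 0. The groups did not overlap, and the change was 0.42 ± 0.14 log2 units (limma adjusted p = 0.0315), although with any of the 4 samples left out the adjusted p was 0.0578 to 0.165. Its trend of 0.035 ± 0.0095 per day (limma adjusted p = 0.00471) was called with each H1 sample left out in turn.

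RPS27L, its paralog and a known p53 target, was first higher and then lower. It had 7743 and 7574 on day 0, 10254 and 12349 on day 2, 8251 and 12023 on day 4, 6044 and 6876 on day 7, and 7899 and 5004 on day 10. Both day 2 samples lay above both day 0 samples, and the day 10 samples lay on either side of them. The trend was -0.070 ± 0.017 log2 units per day (limma adjusted p = 0.00278), while the day 10 change of -0.28 ± 0.26 (limma adjusted p = 0.469) and the F test (limma adjusted p = 0.0585) did not pass. Of the other RPS27L probe sets, both on the B chip and present on 20 of 26 arrays, 222487_s_at had a trend past the threshold, of -0.12 log2 units per day, and 238935_at one of -0.085 that did not pass (limma adjusted p = 0.0113 and 0.134 when every probe set was fitted).

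RPL39, a small protein that lines the exit tunnel of the ribosome, had 48649 and 56516 at day 10, against 38030 and 37470 at day 0. The groups did not overlap, and the change was 0.47 ± 0.15 log2 units (limma adjusted p = 0.0230). It was called in 1 of 4 fits that left a sample out. Its paralog RPL39L, known from testis, had 582 and 540 at day 10, against 718 and 707 at day 0, a change of -0.35 ± 0.23 that did not pass the test (limma adjusted p = 0.308). RPL7L1, a nucleolar protein related to RPL7, changed by -0.33 ± 0.21 (limma adjusted p = 0.287), and RPL26L1 by -0.078 ± 0.19 (limma adjusted p = 0.815). The parent RPL3 changed by 0.15 ± 0.17 (limma adjusted p = 0.586). The probe sets used for the parent RPL7 and the germ cell paralog RPL10L were each called present on 2 of 26 arrays, so no change is given from them. The other RPL7 probe sets, 200717_x_at and 212042_x_at, were present on all 26 arrays and changed by -0.046 ± 0.15 and 0.34 ± 0.15 log2 units at day 10, neither past the threshold (limma adjusted p = 0.871 and 0.128 when every probe set was fitted).

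RPL31, a large subunit protein near the tunnel exit, had the largest day 10 change of the family, and a single probe set carried it. On 200962_at it had 1517 and 1350 on day 0, 4042 and 2474 on day 4, 2405 and 2971 on day 7, and 3844 and 4201 on day 10. Every sample from day 6 on lay above both day 0 samples, and on day 5 the samples gave 1503 and 3713. The day 10 change was 1.49 ± 0.34 log2 units, a 2.81-fold rise (limma adjusted p = 0.00249), and it was called with any 1 of the 4 samples left out. The day 4 call (1.14 ± 0.34, limma adjusted p = 0.0398) was lost without either day 0 sample or without day 4 replicate 1 (adjusted p = 0.126, 0.203 and 0.321). The F test (limma adjusted p = 0.0174) had an adjusted p of 0.0589 and 0.0821 without day 0 replicate 1 and replicate 2. The other RPL31 probe sets, 200963_x_at and 221593_s_at, changed by 0.27 and 0.24 at day 10, and neither was called.

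**Figure D2:**
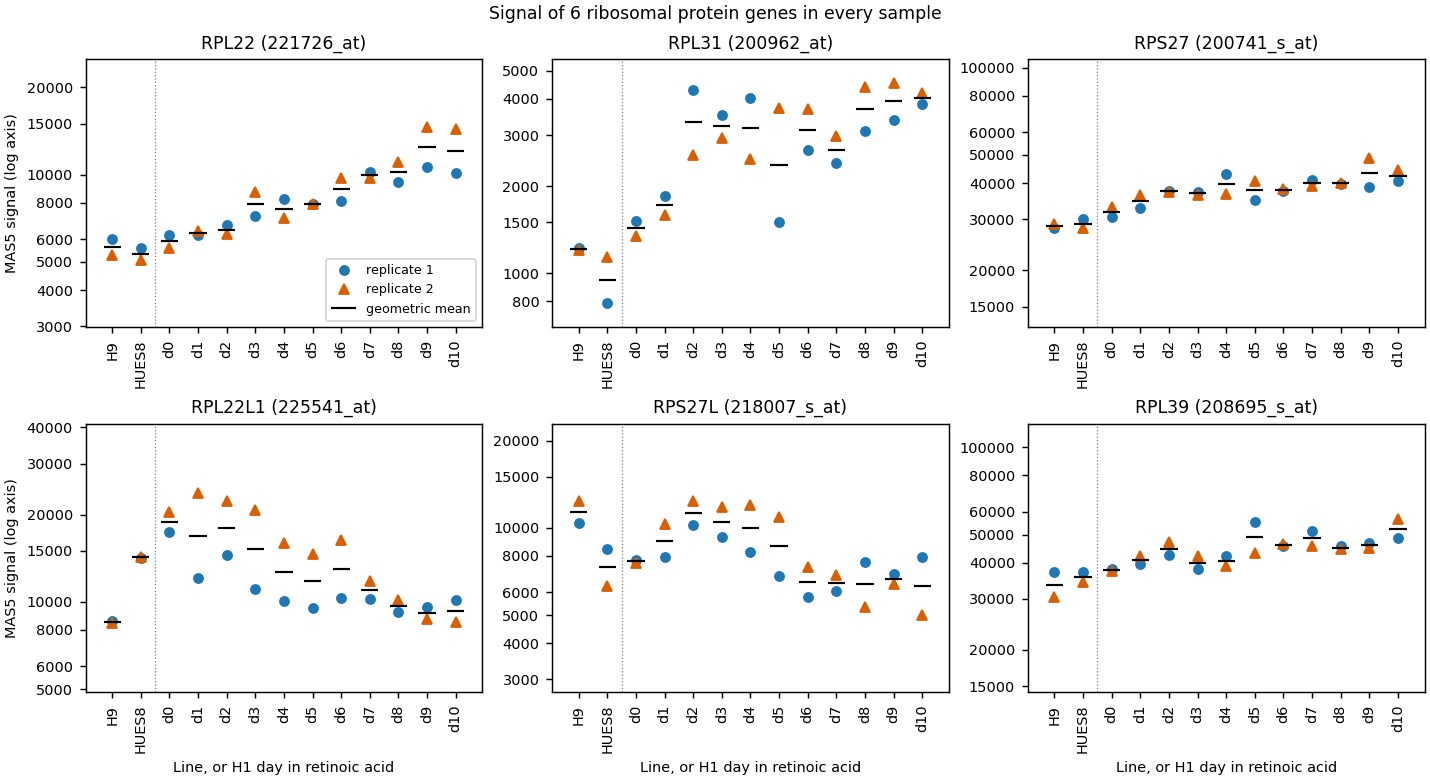
MAS5 signal (log axis) of 6 ribosomal protein genes in each sample of H9, HUES8 and H1 days 0 to 10, with circles for replicate 1, triangles for replicate 2 and bars for the geometric mean. RPL22 climbs to 10139 and 14424 at day 10, RPL22L1 comes down to 10110 and 8506, RPS27L is highest on day 2, and RPS27 and RPL39 stay within a narrow band.

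RPS3, a small subunit protein near the mRNA entry channel, had 38755 and 41284 at day 10, against 27454 and 32891 at day 0. Its change of 0.41 ± 0.15 log2 units passed the test narrowly (limma adjusted p = 0.0419), and did so in 1 of 4 fits that left a sample out. The other rising trends were small, between 0.024 and 0.040 log2 units per day. RPL36 rose by 0.040 ± 0.013 (limma adjusted p = 0.0155), but its adjusted p was 0.109 without day 10 replicate 2, 0.0511 without day 9 replicate 2 and 0.0564 without day 0 replicate 2. RPS4X, the X-linked small subunit protein, rose by 0.030 ± 0.010 (limma adjusted p = 0.0178). RPS21 rose by 0.037 ± 0.015 (limma adjusted p = 0.0464) and was called in 8 of 22 fits that left a sample out. The remaining risers were RPS23 and RPS12, named here after their values were seen.

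Some genes had a dimmer probe set that moved more than the one used. When all 21540 detected single-gene probe sets were fitted, 4672 were called at day 10 and 8828 by trend. Of the 126 member probe sets in that fit, 14 were called at day 10 (13 rose, 1 fell) and 32 by trend (29 rose, 3 fell). Among them, chosen after their values were seen, RPS23 changed by 1.16 log2 units on 227722_at against 0.36 on the one used, and RPL37 by 1.07 and 0.94 on 224763_at and 224767_at against 0.047 on the one used. No gene had probe sets that moved in opposite directions past the threshold.

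The small upward shift of the family depended on the chip. The 2 designs carry 18 member probe sets in common, so the same RNA was read by the same probe sets on both. Their median day 10 change was 0.35 log2 units on the A chip, ranging from 0.012 to 0.46. On the B chip it was -0.011, ranging from -0.24 to 0.20, and for 18 of 18 the A chip gave the higher change. RPL11 gave 0.43 on the A chip, against -0.0083 on the B chip. On the B chip the median member was higher in replicate 2 than in replicate 1 on 11 of 11 H1 days, and on the A chip on 7 of 11. Since 23 members were read from the B chip and 35 from the A chip, the count of rising members follows the choice of chip. With the A chip preferred, the trend called 20 of 58 members and not 12, against 5339 of all 12201 genes tested.

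**Figure D3:**
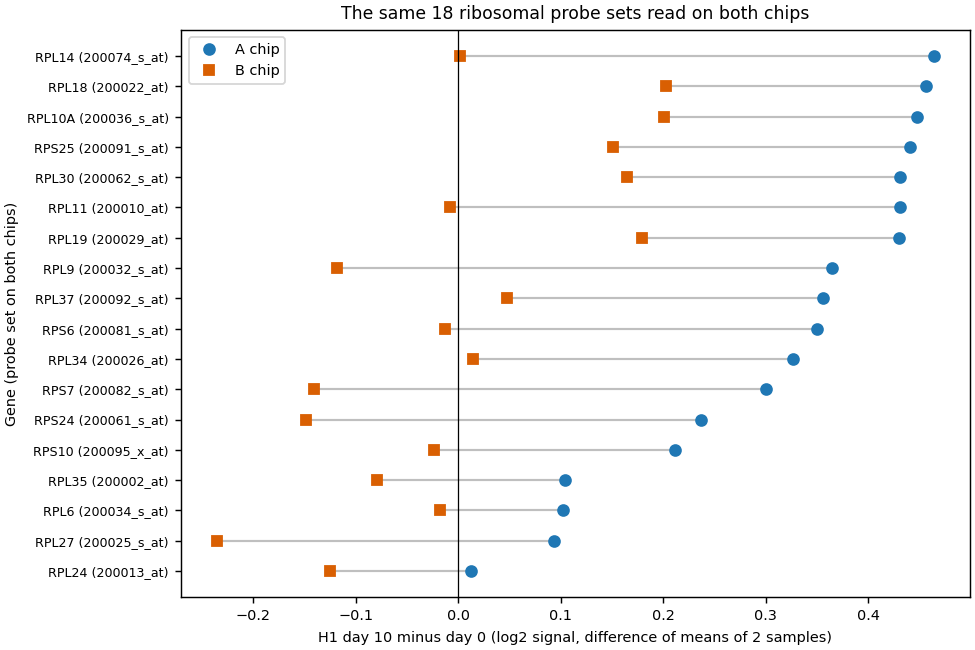
Day 10 minus day 0 on the log2 scale for the 18 ribosomal probe sets present on both designs, as circles (A chip) and squares (B chip) joined by a line per gene, each a difference of means of 2 samples. Every circle lies right of its square, with medians of 0.35 and -0.011.

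**Figure D4:**
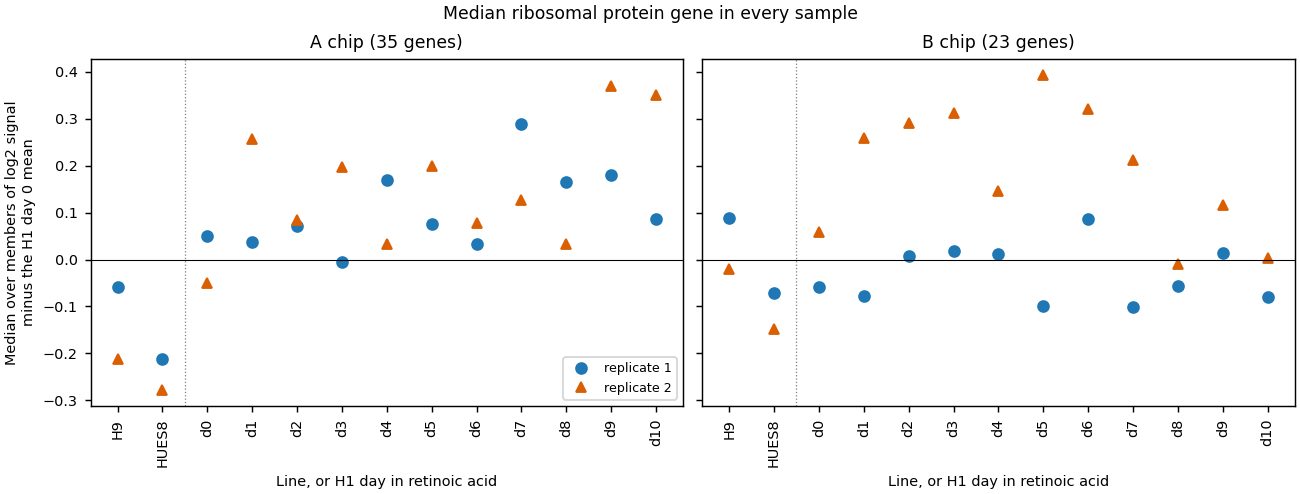
Median over the members of the log2 signal minus the H1 day 0 mean, in each sample, for the 35 members read from the A chip and the 23 read from the B chip, with circles for replicate 1 and triangles for replicate 2. On the B chip the triangles lie above the circles on 11 of 11 H1 days, and on the A chip both HUES8 samples and 1 H9 sample lie lowest.

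The scaling of the arrays also set the level of the family. The array design marks 100 probe sets per chip as normalization controls, and 25 of them are ribosomal, 18 of these members. Centred on the other 75, the members' median day 10 change was 0.46 log2 units, but the median over all genes was then 0.37. In that fit 38 of 58 members were called as rising, against 2600 of all 12201 genes tested. Relative to the median of all genes tested, the members' median was 0.15 higher in the deposited values, 0.15 with quantile normalization, 0.15 when arrays were centred on the median detected probe set, 0.11 when centred on all control probe sets and 0.093 when centred on those without ribosomal ones. The ratio of 3′ to 5′ signal of the ACTB control, a sign of RNA integrity, was 1.89 and 1.45 in the day 10 samples, against 1.30 and 1.27 in the day 0 samples, on the A chip. With that ratio as a covariate, 1 member was called at day 10 (1716 of all 12201 genes tested were) and the members' median change was 0.29. Beyond this its part in the results was not tested.

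Of 43 tested ribosome biogenesis genes, 22 fell at day 10 and 0 rose by limma (51.2% called, all lower, against 12.5% of all genes tested that fell). All 43 had a lower mean at day 10 than at day 0, and their median change was -0.59 log2 units. DDX21, a nucleolar RNA helicase, fell by 1.83 ± 0.18 (limma adjusted p = 2.28e-07). NIP7, a factor of ribosomal RNA processing, fell by 1.48 ± 0.30 (limma adjusted p = 8.28e-04). LTV1 and PNO1, both assembly factors of the small subunit, fell by 1.39 ± 0.24 and 1.29 ± 0.28 (limma adjusted p = 1.75e-04 and 0.00201). The list's median stayed below 0 under every scaling tried, from -0.74 to -0.31. Centring on controls without ribosomal probe sets moved the median of all genes to 0.37. Then 10 of the 43 fell, against 777 of all 12201 genes tested, and 7 of the 43 had a higher mean at day 10. DDX21, NIP7, LTV1 and PNO1 were called with any 1 of the 4 samples left out, but PNO1 was not called with the ACTB ratio as a covariate (adjusted p = 0.185). The count that fell was 14 and 11 without day 0 replicate 1 and replicate 2, and 17 and 12 without day 10 replicate 1 and replicate 2.

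Of 13 RNA polymerase I genes, 3 fell and 1 rose at day 10 (30.8% called, against 25.5% of all genes tested), a share near that of all genes. The subunits POLR1G, POLR1B and POLR1A fell by 1.67 ± 0.27, 1.43 ± 0.25 and 0.99 ± 0.28 log2 units (limma adjusted p = 9.93e-05, 2.28e-04 and 0.0108). TAF1D, a part of its initiation factor, rose by 1.19 ± 0.37 (limma adjusted p = 0.0226). TAF1D was called in 0 and POLR1A in 2 of the 4 fits that left a sample out. The list's median was -0.15, and 0.16 when arrays were centred on controls without ribosomal probe sets. Of 15 growth control genes, 4 fell and 0 rose at day 10 (26.7% called, against 25.5% of all genes tested), also near that of all genes. MYC, a transcription factor that drives ribosome production, fell by 5.83 ± 0.85 (limma adjusted p = 3.68e-05), and EIF4EBP1, a translation repressor regulated by mTOR, fell by 1.51 ± 0.24 (limma adjusted p = 1.05e-04). MTOR itself and LARP1, which binds TOP starts, fell by 0.88 ± 0.31 and 0.56 ± 0.18 (limma adjusted p = 0.0427 and 0.0264), and each was called in 1 of the 4 fits that left a sample out. Of 4 other scalings, MTOR was called under 2 and LARP1 under 3. Earlier in the course other genes of this list rose: DEPTOR, an inhibitor of mTOR, by 3.72 ± 0.34 on day 1 and 1.98 ± 0.34 on day 4 (limma adjusted p = 1.28e-06 and 6.24e-04), and MYCN, a relative of MYC, by 1.73 ± 0.32 on day 4 and 1.58 ± 0.32 on day 7 (limma adjusted p = 0.00124 and 0.00158).

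The other classes of translation genes lay on either side of the ribosomal proteins. Elongation factors and other genes known for TOP mRNAs had a median day 10 change of 0.26 log2 units. A TOP start was present in 11 of 12 with a promoter entry. At day 10, 0 of 14 were called, against 25.5% of all genes tested. By trend 4 of these 14 were called (28.6%, against 44.8% of all genes tested). NAP1L1, EEF1D and TPT1 rose, and EEF1A1 fell by 0.093 ± 0.021 per day (limma adjusted p = 0.00126). EEF1A1 was read from the B chip. With the A chip preferred 5 of the 14 rose by trend and 0 fell, against 2867 and 2472 of all 12201 genes tested. With the ACTB ratio as a covariate 1 rose and 0 fell, against 2066 and 1765 of all genes tested. Of 22 initiation factors, 6 fell and 2 rose (36.4% called, against 25.5% of all genes tested), with a median of -0.21 that was 0.074 when arrays were centred on controls without ribosomal probe sets. EIF5A, which helps ribosomes past difficult peptide bonds, fell by 1.52 ± 0.22 (limma adjusted p = 3.74e-05). EIF4E, the cap-binding factor, fell by 0.99 ± 0.17 (limma adjusted p = 2.30e-04). Of 76 mitochondrial ribosomal protein genes, which serve the separate ribosome of mitochondria, 24 fell and 0 rose (31.6% called, all lower, against 12.5% of all genes tested that fell), with a median of -0.54. MRPL41 and MRPL4 fell by 1.31 ± 0.37 and 1.26 ± 0.29 (limma adjusted p = 0.0128 and 0.00261), MRPL41 being called in 1 of the 4 fits that left a sample out. The count that fell was 15 and 8 without day 0 replicate 1 and replicate 2, and 17 and 10 without day 10 replicate 1 and replicate 2. Centred on controls without ribosomal probe sets, 11 of the 76 fell and 2 rose, with a median of -0.14. In that fit 777 of all 12201 genes tested fell and 2600 rose. With the ACTB ratio as a covariate 2 of the 76 fell, and 8 of the 43 biogenesis genes, against 875 of all 12201 genes tested.

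**Figure D5:**
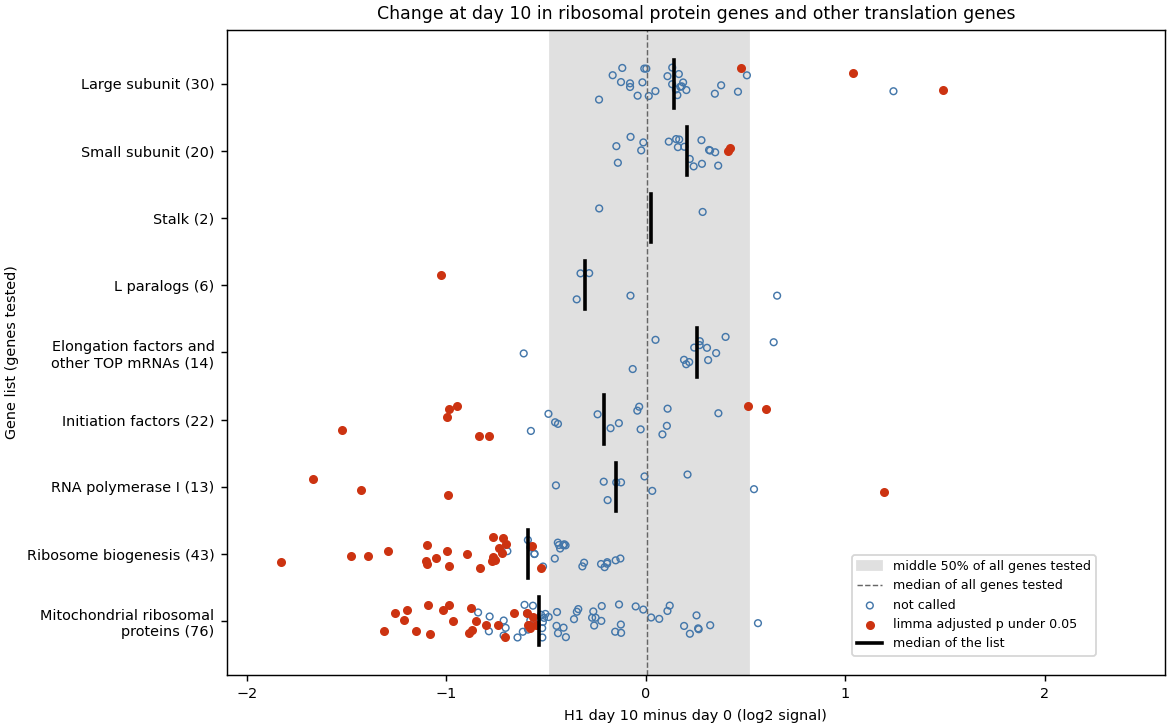
Day 10 minus day 0 on the log2 scale for each tested gene of the ribosomal protein classes and of the other translation lists, with filled points for limma adjusted p under 0.05, open points for the rest, a bar at each list's median, and grey for the middle 50% of all genes tested. The ribosomal proteins cluster just right of 0 (large subunit median 0.14, small subunit 0.21), and the biogenesis and mitochondrial lists lie left of it (medians -0.59 and -0.54). The large and small subunit lists pool genes of the A chip and the B chip, on which the probe sets in common gave different changes.

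Of 11 measured members whose loss of a copy causes Diamond-Blackfan anaemia, 1 (RPS27) was called at day 10 (9.09%, against 25.5% of all genes tested). Of the MDM2-binding ribosomal proteins, 2 of 4 were measured and neither was called on the probe set used, which for both was on the B chip.

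On the probe sets used, the undifferentiated lines differed from H1 day 0 in 1 member. RPL22L1 had 8565 and 8433 in H9, against 17468 and 20481 in H1 day 0, a change of -1.15 ± 0.32 log2 units and a ratio of 0.45 (limma adjusted p = 0.0443). Both H9 samples were below every H1 day 0 sample, but with any 1 of the 4 samples left out the adjusted p was 0.136 to 0.214. RPL22L1 was the only member called in H9 on the probe sets used (1.72%, against 4.64% of all genes tested, of which 2.49% were lower). With every detected probe set fitted, 2 of 126 member probe sets were called in H9, both lower, against 918 of all 21540 (542 lower). Besides that of RPL22L1 this was 238824_at of RPS29, on the B chip and present on 21 of 26 arrays. It changed by -1.98 ± 0.39 log2 units (limma adjusted p = 0.00509). The RPS29 probe set used, 201094_at, changed by -0.24 ± 0.14 (limma adjusted p = 0.396 in the same fit). RPL22 had 6002 and 5295 in H9, against 6204 and 5584 in H1 day 0, a difference of -0.062 ± 0.18 (limma adjusted p = 0.898). RPS27L had 10388 and 12335 in H9, against 7743 and 7574 in H1 day 0, and its change of 0.56 ± 0.26 did not pass the test (limma adjusted p = 0.234) although the groups did not overlap.

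In HUES8 no member was called by limma (0.197% of all genes tested were). Of the members 9 had an unadjusted limma p under 0.05 (15.5%, against 8.23% of all genes tested). The medians of the members were -0.14 log2 units in HUES8 and -0.067 in H9, each against H1 day 0, and 8 and 21 of 58 members were higher. With quantile normalization the medians were -0.057 in HUES8 and -0.015 in H9, and when arrays were centred on the median detected probe set they were -0.11 in HUES8 and 0.0046 in H9. Both comparisons share the H1 day 0 samples. In the deposited scaling, all 20 small subunit genes had a lower mean in HUES8 than in H1 day 0, with changes from -0.39 to -0.016. With quantile normalization 23 of 58 members were higher in HUES8, against 8 in the deposited scaling. RPL22L1 had 14193 and 14315 in HUES8, against 17468 and 20481 in H1 day 0, a change of -0.41 ± 0.32 (limma adjusted p = 0.815).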

How the data were processed

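The authors deposited MAS5 signals, per the submitters' processing notes, which are linear intensity values. The deposited detection p-value per probe set was read beside each (present under 0.05). The 2% trimmed mean was 499.9 on the A chip arrays and 500.0 on the B chip arrays. The present share was 44.8% to 54.2% on the A chip and 31.1% to 40.1% on the B chip. The 52 columns of calls were not used. Signals were taken to log2 without an offset.

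Probe sets were named from the array annotation, with symbols updated by gene identifier, and 34503 of 44928 had 1 gene, 1597 several and 8828 none. Each gene was represented by its brightest detected probe set (by mean log2 signal), those ending in _x_at last, on whichever chip held it. Within each chip, limma 3.58.1 (R 4.3.3) fitted a mean per group with an intensity trend and 13 residual degrees of freedom. Benjamini-Hochberg adjustment ran over all 12201 genes tested, per comparison. Tests were two-sided: an F test and a linear trend over the H1 days, days 1, 4, 7 and 10 against day 0, and each other line against H1 day 0. The remaining days are given as levels. The fit was tested on simulated data.

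Named members were, per test, the 5 called with the largest rise and the 5 with the largest fall, the L paralogs and their parents, the stalk proteins, RPL11 and RPS4X. Of the other lists up to 4 called genes were named. Members and lists were chosen with earlier results of these data known. The precision is limited by the number of arrays, 2 per group and chip. Sequences are from RefSeq.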

Additional observations from a re-analysis of the deposited data

How the results depend on the processing

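In the deposited scaling 0, 1, 1 and 6 members were called on days 1, 4, 7 and 10, 1 in H9, 0 in HUES8, 12 by trend and 2 by the F test. Counts that moved by over 1.5 times were these. Without the detection filter, 0 were called on day 4, 3 on day 10 and 0 in H9. With the mean of a gene's probe sets, 0 were called in H9 and 1 by the F test. With all probe sets, 3 were called on day 7, 14 on day 10, 2 in H9, 32 by trend and 5 by the F test. In the same order, 2820, 4672, 918, 8828 and 4982 of all 21540 probe sets were called. Quantile normalization gave 3 on day 7 and 4 by the F test. Centring on the control probe sets gave 0 on day 4, 2 on day 7, 2 in H9 and 24 by trend. Centring on the median detected probe set gave 3 on day 10, 0 in H9 and 5 by trend. Without the intensity trend 0 were called on day 4, 0 in H9 and 1 by the F test. With only the groups compared, 2 were called on day 7, 3 on day 10 and 2 in H9. The ACTB covariate gave 0 on day 4, 1 on day 10 and 1 by the F test, and a signal offset of 50 gave 2 on day 7. After seeing the data 3 alternatives were added. Control probe sets without ribosomal ones gave 4 on day 7, 39 on day 10, 44 by trend and 14 by the F test. In the same order, 1687, 3377, 5645 and 3104 of all 12201 genes were called. The brightest probe set whatever its suffix gave 0 on day 4 and 0 by the F test. With the A chip preferred, 2 were called on day 7, 0 in H9 and 20 by trend (1802, 523 and 5339 of all 12201 genes).

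The median log2 change of the members turned to -0.026 on day 1 and -0.022 on day 4 under centring on the controls, and was then -0.32 in H9, -0.30 in HUES8 and 0.020 per day by trend. Centring on the median detected probe set gave 0.0072 on day 10 and turned the trend to -0.0094 per day. The ACTB covariate gave 0.24 on day 7, 0.29 on day 10 and 0.020 per day. Controls without ribosomal probe sets gave 0.46 on day 10 and 0.038 per day, and turned RPL11 at day 10 to 0.46. The trend's median was 0.020 with the mean of probe sets, 0.014 with all probe sets and 0.019 with the A chip preferred, against 0.0056. The cause of these differences was not tested. For single members, 379 values under alternatives other than leaving out a sample kept direction and side of the threshold, 50 lost it, 2 gained it and 1 turned.

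With 1 sample left out, 0 members were called on day 1, 0 to 1 on day 4, 0 to 1 on day 7, 2 to 5 on day 10, 0 in H9, 0 in HUES8, 6 to 14 by trend and 1 to 3 by the F test. The median change was then -0.0015 to 0.26 on day 1 and 0.025 to 0.27 on day 10. A lone sample was assumed to vary like the other groups. Replicate numbers were not taken to pair the samples, since not every correlation between groups of the differences between replicates was over 0.1: they ran from -0.088 to 0.37 on the A chip (28 of 78 over 0.1) and from -0.050 to 0.31 on the B chip (24 of 78). With the replicate block 1 member was called on day 1, 3 on day 7 and 4 by the F test, against 0, 1 and 2 without it. By trend 10 members rose and 4 fell with the block, against 10 and 2 without it. Of all 12201 genes tested, 3051 rose and 2868 fell by trend with the block.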

Other observations

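Probe sets annotated to a ribosomal protein gene together with small nucleolar RNAs, which are spliced from introns of such genes, and with no other gene were outside the rule. There were 46 of them, for 15 ribosomal protein genes, of which 11 had no other probe set among the members. Their median day 10 change was 0.18 log2 units, with a range from -0.89 to 1.08, and 37 of 46 were higher at day 10. The 39 on the A chip had a median of 0.21 and the 7 on the B chip a median of -0.068.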
